A study of Homo sapiens with 16 samples.

Results

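The 28 genes described here encode enzymes and regulators of cholesterol and fatty acid synthesis. They were taken by symbol from a fixed list, 28 of 56832 gene names in the deposited table, and all 28 passed the filter on low counts that left 23100 genes to test. By role, 7 act in the mevalonate pathway (ACAT2, HMGCS1, MVK, PMVK, MVD, IDI1, FDPS) and 3 turn farnesyl diphosphate into lanosterol (FDFT1, SQLE, LSS). A further 8 convert lanosterol to cholesterol (CYP51A1, TM7SF2, MSMO1, NSDHL, HSD17B7, EBP, SC5D, DHCR7). The remaining genes were 4 regulators (SREBF1, SREBF2, INSIG1, STARD4) and 6 genes of fatty acid synthesis and desaturation (ACLY, ACACA, FASN, SCD, FADS1, FADS2).

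Cells make cholesterol from acetyl-CoA through mevalonate, farnesyl diphosphate, squalene and lanosterol, and make fatty acids from the same precursor. The transcription factors SREBP1 and SREBP2, the products of SREBF1 and SREBF2, are held in the endoplasmic reticulum by INSIG proteins when sterols are plentiful. When sterols fall, they are cleaved, enter the nucleus and activate most of the genes listed here, including their own.

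The study compared H69 and H69M, 2 lines labelled as small cell lung cancer cells, after knockdown of EIF6, the gene of a factor that keeps the large and small ribosomal subunits apart. Each line carried either the shRNA labelled shNTC, with the genotype given as WT, or the shRNA labelled sheIF6, with the genotype given as eIF6 knockdown. Cytoplasmic RNA from the lysate and polysomal RNA from sucrose fractions were sequenced for each, which made 8 groups of 2 libraries and 16 libraries in all. All groups grew in RPMI 1640 with fetal bovine serum and no other treatment, so each line had an outside source of sterols and fatty acids. The labels do not say whether replicates came from separate cultures. The p-values therefore reflect only how far these libraries spread, which may be technical. Levels are CPM, counts scaled to a library's total and corrected by the trimmed mean of M-values. The labels do not say whether 1 sheIF6 sequence or 1 clone was used. In such bulk RNA, fewer cells that express a gene and less RNA per cell cannot be told apart.

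Library totals ran from 36005326 to 87269772 counts. Mitochondrial transcripts made up 2.96 to 6.52% of counts in cytoplasmic and 0.330 to 1.52% in polysomal libraries. The 7 neuroendocrine markers checked summed to 1563 to 3448 CPM in H69. In H69M they summed to 10.3 and 18.4 CPM in the cytoplasmic libraries numbered 1, to 49.2 and 53.7 in those numbered 2, to 27.6 and 51.6 in the polysomal libraries numbered 1, and to 394 and 240 in the polysomal libraries numbered 2. The 7 non-neuroendocrine markers summed to 80.5 to 254 CPM in H69 and 3460 to 6399 in H69M. EIF6 (chr20:35278911-35284985, minus strand, GRCh38) was at 116 and 112 CPM in H69 shNTC cytoplasmic RNA against 65.0 and 67.7 with sheIF6, and at 424 and 389 against 234 and 220 in polysomal RNA. In H69M it was at 204 and 165 against 161 and 96.3 CPM in cytoplasmic RNA and at 323 and 202 against 86.3 and 136 in polysomal RNA. Every knockdown library was thus below both of its controls. The log2 changes of EIF6 were -0.78 (SE 0.30), -0.84 (SE 0.30), -0.52 (SE 0.29) and -1.24 (SE 0.30), with adjusted p of 1, 0.956, 0.547 and 0.204 in edgeR's quasi-likelihood test with Benjamini-Hochberg adjustment. DESeq2 called EIF6 in H69M polysomal RNA only (-1.22, adjusted p = 0.0149). The H69M values moved with the libraries kept. In cytoplasmic RNA EIF6 was at -0.18 without sheIF6 cytoplasmic replicate 2 and at -0.93 without replicate 1. In polysomal RNA it was at -0.85 without shNTC polysomal replicate 1 and at -1.61 without sheIF6 polysomal replicate 2. Without both H69M shNTC libraries numbered 2 EIF6 passed in polysomal RNA (-1.54, adjusted p = 0.0406 by edgeR's quasi-likelihood test with Benjamini-Hochberg adjustment), and without both numbered 1 it did not (-0.85, 0.612).

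Most promoters found for these genes hold short sequences of the kind bound by NF-Y and Sp1, factors known to act together with SREBPs. RefSeq promoters (GRCh38.p14) were matched by symbol for 24 of the 28 genes, which gave 33 entries, and the 250 bases before each start were searched on both strands. CCAAT was found in 69.7% of these entries against 32.0% of all 35116 entries, and at least 2 copies in 45.5% against 9.53%. GGGCGG was found in 87.9% against 42.6%, CACGTG in 9.09% against 6.34%, and TCACNCCAC, the form of the SREBP site searched, in 3.03% against 0.883%. Overlapping entries of the same gene were counted separately in these shares. By gene, CCAAT was found in 19 of the 24 genes, GGGCGG in 23, CACGTG in 2 and TCACNCCAC in 1. In the stretches printed, CCAAT matches on opposite strands overlap in NSDHL. Matches to GGGCGG are not marked. A match describes letters and is not a bound site. The stretches below show matches in a regulator and in 4 enzymes to which the line and polysome comparisons return. They hold 2 of the 3 CCAAT matches of FDPS, 1 of 2 in HMGCS1, 3 of 5 in NSDHL and the 1 match each of SREBF2 and TM7SF2, with CCAAT (read as ATTGG from the other strand) and TCACNCCAC in capitals. SREBF2 is the 1 entry with TCACNCCAC, 133 bases before the start. The stretches lie at chr22:41832965-41833035 (SREBF2, plus strand), chr1:155308686-155308748 (FDPS, plus), chr5:43313513-43313572 (HMGCS1, minus), chr11:65111762-65111842 (TM7SF2, plus) and chrX:152830913-152830962 (NSDHL, plus), each upstream of its gene's annotated RefSeq start.
SREBF2: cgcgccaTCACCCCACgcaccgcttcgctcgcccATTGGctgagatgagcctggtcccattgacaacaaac
FDPS: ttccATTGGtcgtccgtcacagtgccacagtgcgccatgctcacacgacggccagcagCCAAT
HMGCS1: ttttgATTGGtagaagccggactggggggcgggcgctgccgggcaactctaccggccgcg
TM7SF2: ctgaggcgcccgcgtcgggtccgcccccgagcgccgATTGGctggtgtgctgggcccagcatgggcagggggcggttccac
NSDHL: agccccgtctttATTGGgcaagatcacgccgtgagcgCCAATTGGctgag

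Levels were compared between genes per kilobase of exon, counting every exon base annotated for a gene in any transcript. That length was 6480 bases for MVK and 1280 for PMVK. It can exceed the length of the transcripts present, so the order of genes is approximate. In H69 shNTC cytoplasmic RNA the highest means were those of ACLY, which makes cytosolic acetyl-CoA, at 120 CPM per kb, SCD, the stearoyl-CoA desaturase, at 82.6, FASN, the fatty acid synthase, at 68.3, HMGCS1, which makes HMG-CoA, at 67.3, and FDPS, which makes farnesyl diphosphate, at 65.3. The lowest were MVK, the mevalonate kinase, at 4.0, HSD17B7, a sterol ketoreductase, at 5.1, LSS, the lanosterol synthase, at 5.5, and ACACA, which makes malonyl-CoA, at 5.7 CPM per kb. In H69M shNTC cytoplasmic RNA the highest were ACLY at 121, FDPS at 47.0 and CYP51A1, the lanosterol demethylase, at 36.8. CYP51A1 shares 79.4% of its exon bases with AC000120.2 on the same strand and has 3 named pseudogenes, so its level is uncertain. Together the 28 genes took 0.562 to 0.788% of all counts in H69 libraries and 0.245 to 0.475% in H69M libraries, so the ranges of these unscaled shares did not overlap. As summed CPM, H69 and H69M were at 4654 to 5787 against 2201 to 3668 in cytoplasmic RNA. In polysomal RNA they were at 6050 to 9082 against 3455 to 5639. Summed CPM of the lines thus did not overlap within a fraction, but did over both fractions.

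**Figure D1:**
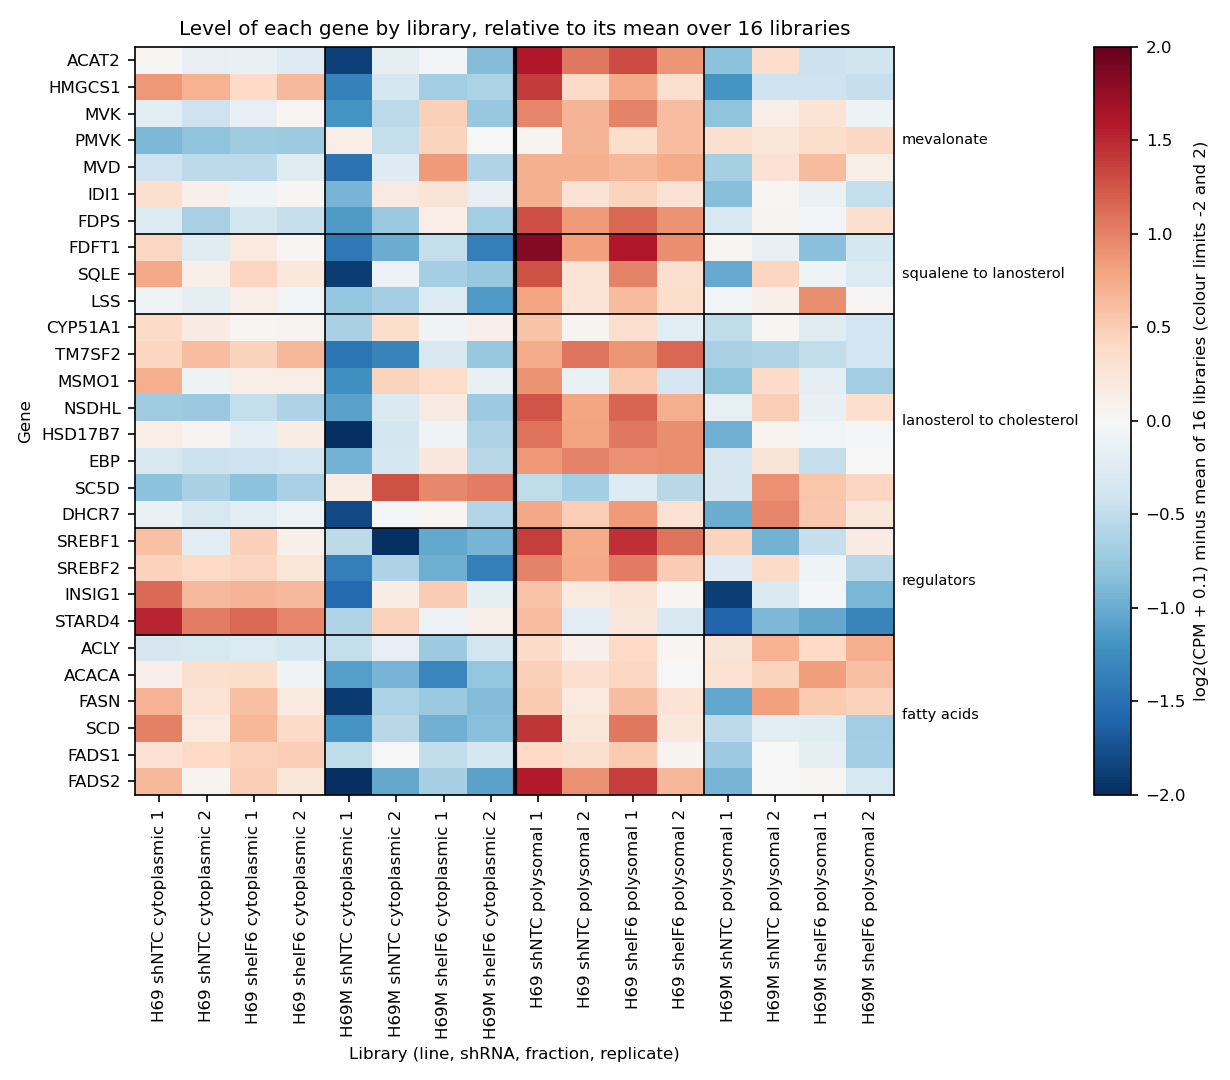
Level of each of the 28 genes in each of the 16 libraries, as log2(CPM + 0.1) minus that gene's mean over all libraries, with colours limited at -2 and 2 and genes ordered by role. Most genes are above their mean in the 8 H69 libraries and below it in H69M, and the control H69M library numbered 1 is lowest for many of them in both fractions.

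The 2 control H69M replicates differed from each other at these genes. Without any difference of label, the cytoplasmic library numbered 2 was higher than number 1 at 26 of 28 genes, with a median log2 difference of 0.87, while the median over all genes was 0. In polysomal RNA 25 of 28 were higher in number 2 and the median was 0.70. At least 2-fold higher in number 2 were 13 genes in cytoplasmic and 8 in polysomal RNA, and 1 gene, SREBF1, was at least 2-fold lower in each. In H69 shNTC no gene of the 28 differed 2-fold between replicates in cytoplasmic RNA and 5 did in polysomal RNA. The median of number 2 relative to number 1 was -0.39 in both H69 polysomal groups, with 3 (shNTC) and 4 (sheIF6) of 28 genes higher in number 2. In H69M sheIF6 cytoplasmic RNA it was -0.43, with 9 of 28 higher. In the other 3 groups it was -0.18 (H69 shNTC cytoplasmic), -0.05 (H69 sheIF6 cytoplasmic) and -0.17 (H69M sheIF6 polysomal), and the median over all genes was 0 in each group.

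DHCR7, which makes cholesterol from its last precursor, was at 37.7 CPM in the control H69M cytoplasmic library numbered 1 and at 129 in number 2, and at 66.2 and 259 in polysomal RNA. FASN was at 120 and 292 CPM in cytoplasmic RNA and at 221 and 804 in polysomal RNA. SREBF1, the gene of SREBP1, ran the other way, at 50.9 and 14.6 CPM and at 99.6 and 37.8 CPM. ABCA1, a cholesterol exporter induced by the oxysterol receptors called LXR, was at 7.14 and 0.843 CPM in cytoplasmic and at 7.14 and 0.554 in polysomal RNA. In H69 shNTC number 2 was also below number 1 for both genes, with ratios of 0.27 and 0.20 for ABCA1 and 0.57 and 0.64 for SREBF1 in cytoplasmic and polysomal RNA. For the LXR receptor genes the ratios of number 2 to number 1 in H69M shNTC were 1.14 and 0.88 (NR1H2) and 0.86 and 1.18 (NR1H3). ABCG1, another LXR target, was at 2.72 and 0.264 CPM in cytoplasmic RNA and at 3.94 and 3.57 in polysomal RNA. What differed between these replicates was not tested. Counts of calls and the H69M knockdown medians are also given without both libraries of a number, as settings chosen after the data were seen.

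**Figure D2:**
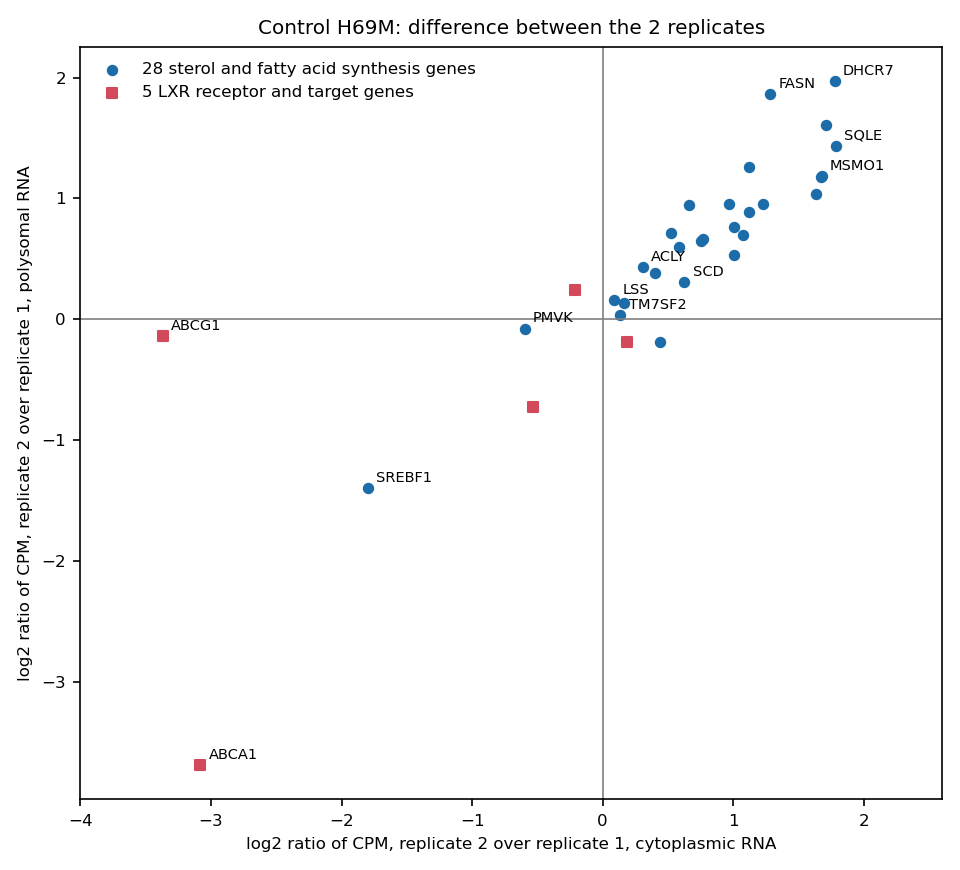
Log2 ratio of CPM in replicate 2 over replicate 1 of control H69M, in cytoplasmic RNA (x axis) and polysomal RNA (y axis), for the 28 genes (circles) and 5 LXR receptor and target genes (squares). Most of the 28 genes lie above 0 on both axes, and SREBF1 and ABCA1 lie below 0 on both.

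EIF6 knockdown was compared with shNTC in each line and fraction. None of the 28 genes passed the test in any of the 4 comparisons by edgeR's quasi-likelihood test with Benjamini-Hochberg adjustment over 23100 genes. In H69 cytoplasmic RNA 0% of all genes tested were called higher and 0% lower, and in H69 polysomal RNA 0% and 0.00433%. In H69M cytoplasmic RNA the shares were 0.0909% higher and 0.0649% lower, and in H69M polysomal RNA they were 0.0303% and 0.0346%, so few genes of any kind passed. At an unadjusted p under 0.05 there were 0, 0, 3 and 0 of the 28 genes, and 696, 956, 2537 and 1882 of all genes. DESeq2 called 0, 0, 1 and 0 of the 28 genes and limma-voom 0 in all 4. Shares of all genes called by these tools are not given here or below. Their counts therefore show dependence on the tool and are not a result about the 28 genes. A replicate block, a term for same-numbered libraries of a line, also gave 0 of the 28 genes in all 4. With it, 0% and 0.00433% of all genes were called higher and lower in H69 cytoplasmic RNA, and 0.0303% and 0.0779% in H69 polysomal RNA. In H69M the shares with the block were 0.558% and 0.602% for cytoplasmic and 0.364% and 0.515% for polysomal RNA. The 95% intervals of 14, 16, 11 and 13 of the 28 genes lay within a 2-fold change in either direction.

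In H69 the differences were small. The log2 changes in cytoplasmic RNA ran from -0.25 to 0.25 with a median of -0.02, and in polysomal RNA the median was -0.07, against -0.01 and 0 over all genes. HMGCS1 was at 335 and 298 CPM in H69 shNTC cytoplasmic RNA and at 242 and 289 with sheIF6. SREBF2, the gene of SREBP2, was at 289 and 278 CPM and at 284 and 250, and FASN at 730 and 550 and at 690 and 517. SREBF2 and FASN overlapped between shRNAs, and both HMGCS1 values with sheIF6 lay below both controls.

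In H69M cytoplasmic RNA the median log2 change over the 28 genes was 0.34 against 0 over all genes, and 22 of 28 changes were above 0. These included all 7 mevalonate genes, all 3 genes from farnesyl diphosphate to lanosterol and all 8 genes from lanosterol to cholesterol, but 2 of 4 regulators and 2 of 6 fatty acid genes. In polysomal RNA the median was 0.07 against -0.01. The medians turned with the control libraries kept. With both H69M shNTC libraries numbered 1 left out they were -0.11 in cytoplasmic and -0.24 in polysomal RNA, with 13 and 7 of 28 changes above 0. Without both numbered 2 they were 0.86 and 0.42, with 26 and 25 above 0. Without both H69M polysomal libraries numbered 2 the polysomal median was 0.56 against 0 over all genes. The 2 knockdown libraries were compared here with the control pair that differed most, and no gene in this paragraph passed the test. TM7SF2, a sterol C14 reductase, had 11.7 and 12.8 CPM with shNTC and 25.9 and 19.0 with sheIF6, a log2 difference of 0.87 (SE 0.22, adjusted p = 0.181, edgeR's quasi-likelihood test with Benjamini-Hochberg adjustment). FDPS had 151 and 199 against 362 and 205 CPM (0.70, SE 0.30, adjusted p = 0.415). MVD, the mevalonate diphosphate decarboxylase, had 17.0 and 39.9 against 85.5 and 31.2 CPM (1.04, SE 0.47, adjusted p = 0.446). For TM7SF2 and FDPS both knockdown libraries lay above both controls, and for MVD they overlapped. Without both H69M shNTC libraries numbered 1 the changes in cytoplasmic RNA were 0.81 for TM7SF2, 0.51 for FDPS and 0.55 for MVD, and without both numbered 2 they were 0.95, 0.92 and 1.79, with no call in either case.

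These values depended on the tool, on the control libraries and on the knockdown libraries. In H69M sheIF6 cytoplasmic RNA 9 of 28 genes were higher in number 2 than in number 1, with a median log2 difference of -0.43. The ratios of number 2 to number 1 were 0.37 for MVD, 0.57 for FDPS and 0.73 for TM7SF2. EIF6 was at 161 CPM in number 1 and at 96.3 in number 2, so number 1 retained more EIF6 RNA. DESeq2 called TM7SF2 in H69M cytoplasmic RNA (0.87, adjusted p = 0.0128). Without both H69M shNTC libraries numbered 2, edgeR called HSD17B7 in cytoplasmic RNA (1.70, adjusted p = 0.0346) and FASN in polysomal RNA (1.53, adjusted p = 0.0415). Without both numbered 1, none of the 28 genes was called in either fraction. SREBF1, SREBF2, INSIG1, SCD, FADS1 and ACLY, named here because they stand for the regulators and for fatty acid synthesis, had log2 differences of 0.18, -0.22, 0.67, -0.07, -0.19 and -0.21 in H69M cytoplasmic RNA, and the adjusted p was at least 0.707 for each. INSIG1, which retains the SREBPs, was at 32.9 and 108 CPM with shNTC and at 139 and 84.8 with sheIF6, overlapping.

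**Figure D3:**
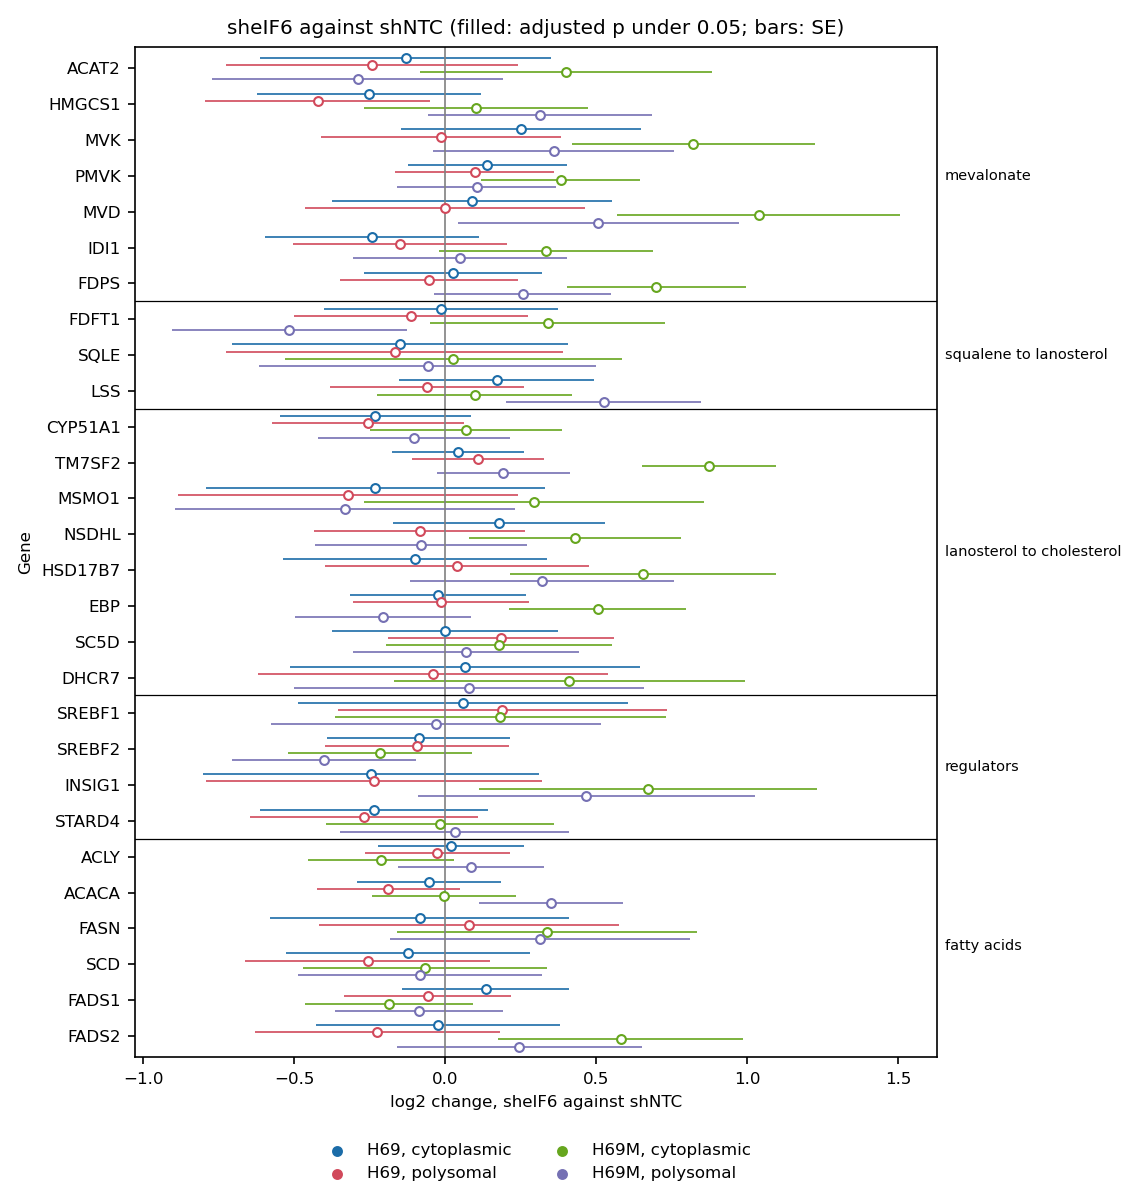
Log2 change of each of the 28 genes on EIF6 knockdown for each line and for both fractions, with bars of 1 standard error and genes ordered by role; a filled dot would mark an adjusted p under 0.05. No dot is filled, the H69 values lie close to 0, and 22 of the 28 values in H69M cytoplasmic RNA are above 0.

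The effect of knockdown in H69M was tested against that in H69. None of the 28 genes passed in cytoplasmic RNA, where 0.013% of all genes were called higher and 0.0173% lower, or in polysomal RNA, where the shares were 0.00433% and 0%. The block likewise called 0 of them, against 0.0866% and 0.0519% of all genes in cytoplasmic and 0.0996% and 0.0606% in polysomal RNA. At an unadjusted p under 0.05 there were 1 and 0 of the 28 genes and 1138 and 1175 of all genes, and DESeq2 and limma-voom called 0 of the 28. The medians of the difference were 0.35 and 0.14. TM7SF2 differed by 0.83 (SE 0.31, unadjusted p = 0.0191, adjusted p = 0.916 by edgeR's quasi-likelihood test with Benjamini-Hochberg adjustment) in cytoplasmic RNA. The change of polysomal relative to cytoplasmic RNA on knockdown was also tested, and none of the 28 genes passed in H69 or H69M, with 0% of all genes called in either direction. Unadjusted p was under 0.05 for 0 and 1 of the 28 genes and for 383 and 392 of all genes, and DESeq2 and limma-voom called 0 of the 28. Medians over the 28 genes were -0.06 in H69 and -0.25 in H69M.

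The lines differed at many more of these genes. In control cytoplasmic RNA, 9 of 28 genes were lower and 1 was higher in H69M than in H69, against 14.1% and 16.2% of all genes tested. The median log2 difference over the 28 genes was -0.67, and -0.01 over all genes. In control polysomal RNA 10 genes were lower and 0 higher, against 15.6% and 18.4% of all genes, with medians of -0.91 and 0.02. With sheIF6 in both lines, cytoplasmic RNA had 7 genes lower and 2 higher (14.6% and 16.9% of all genes, medians -0.39 and 0.02). That median of -0.39 was -0.75 without H69M sheIF6 cytoplasmic replicate 1, -0.62 under scaling by total counts alone (-0.19 over all genes) and -0.61 with the replicate block (0.08 over all genes). Polysomal RNA had 9 lower and 0 higher (17.3% and 19%, medians -0.78 and 0.02). Calls are from edgeR's quasi-likelihood test with Benjamini-Hochberg adjustment. The replicate block fits 1 shift of number 2 from number 1 in each line. Line differences given with it, here and below, are therefore those fitted for the libraries numbered 1. They are not means over both replicates, and they depend on which number is taken as the reference. Each of the 4 differences is between the group means of its own 4 libraries, while the spread was estimated from all 16. Same-numbered libraries of a line also varied together, with r of 0.578 between the 2 fractions of H69M shNTC. The 4 comparisons are therefore not independent of each other. When the 4 libraries of each line in a fraction were pooled over shRNAs, all H69M libraries were below all H69 libraries for 14 of 28 genes in cytoplasmic and 18 of 28 in polysomal RNA, against 24.1% and 22.7% of all genes. All were above for 2 and 0, against 23.9% and 23.4%.

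Of the sterol genes, TM7SF2 (chr11:65111845-65116384, plus strand) was lower in H69M in all 4 comparisons. It was at 43.6 and 49.5 CPM in H69 shNTC cytoplasmic RNA and at 11.7 and 12.8 in H69M, and at 44.8 and 51.1 against 25.9 and 19.0 with sheIF6. In polysomal RNA it was at 54.0 and 67.9 against 20.7 and 21.2 with shNTC, and at 59.9 and 71.7 against 23.0 and 24.9 with sheIF6. No H69M library reached any H69 library. The log2 differences were -1.92 (SE 0.23, adjusted p = 5.15e-05), -1.09 (SE 0.22, 0.00245), -1.54 (SE 0.22, 0.00024) and -1.46 (SE 0.22, 0.000348) by edgeR's quasi-likelihood test with Benjamini-Hochberg adjustment, and the gene kept its call in each comparison without any 1 of the 16 libraries. Its promoter is among those printed above.

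HMGCS1, which joins acetoacetyl-CoA and acetyl-CoA, was at 335 and 298 CPM in H69 shNTC cytoplasmic RNA and at 72.1 and 145 in H69M. With sheIF6 the values were 242 and 289 against 114 and 119. In polysomal RNA they were 486 and 240 against 81.2 and 138 with shNTC, and 311 and 231 against 138 and 134 with sheIF6. All H69M libraries were lower. It was called lower with shNTC (-1.54, SE 0.38, adjusted p = 0.00813 in cytoplasmic and -1.73, SE 0.38, 0.00403 in polysomal RNA, edgeR's quasi-likelihood test with Benjamini-Hochberg adjustment) and with sheIF6 in cytoplasmic RNA (-1.19, 0.0291). With sheIF6 in polysomal RNA the difference was -0.99 (adjusted p = 0.0543 by the same test). Under the replicate block, at the libraries numbered 1, it was -1.35 (0.00728). AC114947.2 on the opposite strand overlaps 15.0% of its exon bases.

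FDFT1, the squalene synthase that commits farnesyl diphosphate to sterols, was at 326 and 206 CPM in H69 shNTC cytoplasmic RNA and at 90.4 and 123 in H69M, and at 870 and 433 against 250 and 220 in polysomal RNA. With sheIF6 it was at 279 and 248 against 175 and 94.3 CPM in cytoplasmic and at 742 and 463 against 137 and 192 in polysomal RNA. H69 libraries were all higher. It was called lower in H69M in both control fractions (-1.32, adjusted p = 0.0228, and -1.47, 0.0125) and in sheIF6 polysomal RNA (-1.88, 0.00316) by edgeR's quasi-likelihood test with Benjamini-Hochberg adjustment, and with sheIF6 in cytoplasmic RNA it passed with the replicate block (-1.29, adjusted p = 0.0109). SQLE, the squalene epoxidase, was at 158 and 101 against 24.9 and 85.8 CPM in control cytoplasmic RNA. By the same test on all 16 libraries without the block it passed in none of the 4 comparisons (-1.22 to -0.87). With the block, at the libraries numbered 1, it passed in all 4 (-2.03, -1.72, -1.68 and -1.45, adjusted p = 0.00735 to 0.0246). In control cytoplasmic RNA number 1 was the higher SQLE value in H69 and the lower in H69M. Without both H69M shNTC libraries numbered 2 SQLE was at -2.37 in control cytoplasmic and at -1.87 in control polysomal RNA. In sheIF6 cytoplasmic RNA, a comparison that holds no shNTC library, it was at -1.04 without both numbered 2. Without both numbered 1 it was at -1.03 there. LSS passed in none, with 41.6 and 38.5 against 25.6 and 27.2 CPM in control cytoplasmic RNA.

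Other sterol enzymes were called in some comparisons. ACAT2, a thiolase of the first step, was lower in polysomal RNA with shNTC (490 and 337 against 91.3 and 206 CPM, -1.47, adjusted p = 0.036) and with sheIF6 (399 and 300 against 120 and 123 CPM, -1.52, 0.03), by edgeR's quasi-likelihood test with Benjamini-Hochberg adjustment. Without strand information, its counts are uncertain where opposite-strand genes overlap it. SOD2 overlaps 26.5% of its exon bases, SOD2-OT1 33.9% and TCP1 9.23%. FDPS was lower in the same polysomal comparisons, at 809 and 594 against 265 and 345 CPM (-1.20, adjusted p = 0.00818) and at 735 and 617 against 317 and 412 CPM (-0.89, 0.0331). FDPS has 8 named pseudogenes and RUSC1-AS1 overlaps 18.6% of its exon bases from the opposite strand, so its counts are uncertain. EBP, a sterol isomerase, was also lower in both, at 226 and 247 against 97.6 and 147 CPM (-0.95, 0.0253) and at 233 and 234 against 89.1 and 123 CPM (-1.14, 0.00953). HSD17B7 was lower in control polysomal RNA (48.7 and 39.9 against 11.7 and 23.9 CPM, -1.32, 0.0368) and has 2 named pseudogenes. By the same test on all 16 libraries without the block these 4 genes did not pass in cytoplasmic RNA. In control cytoplasmic RNA HSD17B7 passed with the block (-1.46, 0.029), by limma-voom (-1.30, 0.0356), under scaling by total counts alone (-1.24, 0.0362) and without both H69M shNTC libraries numbered 2 (-2.10, 0.000822). The block also called it in sheIF6 polysomal RNA (-1.30, 0.0324). Whether the fractions differed in the effect of line was tested for the control libraries and is given with the polysome results.

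SC5D (chr11:121292453-121308694, plus strand), the lathosterol desaturase, and PMVK, the phosphomevalonate kinase, ran the other way. SC5D was at 50.6 and 56.9 CPM in H69 shNTC cytoplasmic RNA and at 99.3 and 216 in H69M, and at 50.4 and 57.1 against 175 and 182 with sheIF6. The differences were 1.55 (SE 0.38, adjusted p = 0.00827) and 1.73 (SE 0.39, 0.00452) by edgeR's quasi-likelihood test with Benjamini-Hochberg adjustment. In polysomal RNA SC5D was at 62.6 and 55.9 against 70.5 and 169 CPM (1.01, 0.0548) with shNTC and at 74.0 and 60.6 against 131 and 120 (0.90, 0.0795) with sheIF6. It passed in neither, and both H69M libraries were above both H69 ones in each. PMVK was at 22.5 and 22.2 against 50.2 and 36.8 CPM in cytoplasmic RNA with sheIF6 (0.96, 0.0151). With shNTC it was at 19.6 and 21.0 against 40.1 and 26.5 (0.72, 0.0582). The replicate block, at the libraries numbered 1, put this shNTC difference at 0.95 (0.0102). In polysomal RNA PMVK was at 38.1 and 58.8 against 45.9 and 43.5 CPM, where the lines overlapped. These are the 2 genes for which every H69M cytoplasmic library exceeded every H69 one.

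Among the regulators, SREBF2 (chr22:41833079-41907308, plus strand) was at 289 and 278 CPM in H69 shNTC cytoplasmic RNA and at 81.6 and 138 in H69M, and at 284 and 250 against 107 and 81.7 with sheIF6. In polysomal RNA it was at 420 and 358 against 175 and 275 with shNTC, and at 431 and 298 against 197 and 144 with sheIF6. All H69M libraries were lower. It was called lower in cytoplasmic RNA with shNTC (-1.37, SE 0.31, adjusted p = 0.005) and sheIF6 (-1.50, SE 0.31, 0.00291) and in polysomal RNA with sheIF6 (-1.10, SE 0.31, 0.0148) by edgeR's quasi-likelihood test with Benjamini-Hochberg adjustment. With shNTC in polysomal RNA it was -0.79 (0.0637), and -0.99 (0.0324) with the replicate block. STARD4, a sterol carrier protein, was lower with shNTC in cytoplasmic RNA (222 and 158 against 50.8 and 107 CPM, -1.27, 0.0246) and in polysomal RNA (119 and 65.8 against 25.7 and 41.6 CPM, -1.46, 0.0113) and with sheIF6 in polysomal RNA (90.7 and 62.8 against 38.0 and 30.8 CPM, -1.16, 0.0321). With sheIF6 in cytoplasmic RNA (-1.05, 0.0529) STARD4 passed with the block (-1.53, 0.00252). SREBF1 was at 110 and 62.8 against 50.9 and 14.6 CPM in control cytoplasmic RNA (-1.40, 0.0779, and -1.46, 0.0417 with the block). INSIG1 was at 213 and 153 against 32.9 and 108 CPM (-1.38, 0.087). For both genes all H69M values were below all H69 ones in that comparison.

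In fatty acid synthesis the desaturases were lower in H69M. SCD was at 565 and 321 CPM in H69 shNTC cytoplasmic RNA and at 125 and 192 in H69M, at 446 and 367 against 144 and 158 with sheIF6, and in polysomal RNA at 756 and 332 against 195 and 241, and 585 and 325 against 237 and 174. The differences were -1.48, -1.43, -1.32 and -1.15, with adjusted p of 0.0162, 0.019, 0.0262 and 0.0447 by edgeR's quasi-likelihood test with Benjamini-Hochberg adjustment. FADS2, the first desaturase of polyunsaturated fatty acid synthesis, was at 538 and 357 against 86.0 and 168 CPM, and at 481 and 401 against 217 and 163 in cytoplasmic RNA. In polysomal RNA FADS2 was at 1035 and 647 against 179 and 346, and at 896 and 543 against 349 and 275. Its differences in that order were -1.82, -1.21, -1.68 and -1.21, with adjusted p of 0.00549, 0.0392, 0.00798 and 0.036. FADS1, the next desaturase, was called in 1 of the 4 (cytoplasmic RNA with sheIF6, 384 and 390 against 197 and 221 CPM, -0.89, 0.0286) and with the block in both polysomal comparisons as well (-0.87, 0.0392, and -0.84, 0.0344). SCD and FADS2 each have 1 named pseudogene.

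ACACA (chr17:37084988-37406818, minus strand) differed by line in cytoplasmic RNA. It was at 69.1 and 80.4 CPM in H69 and at 30.2 and 33.8 in H69M with shNTC, and at 82.5 and 61.5 against 26.2 and 37.7 with sheIF6 (-1.22, SE 0.24, adjusted p = 0.00204, and -1.17, SE 0.24, 0.00266, by edgeR's quasi-likelihood test with Benjamini-Hochberg adjustment). In polysomal RNA ACACA was at 90.4 and 81.8 against 80.1 and 87.9 with shNTC, and at 86.7 and 64.5 against 116 and 98.3 with sheIF6, and passed in neither (-0.04 and 0.50). FASN was called in control cytoplasmic RNA only (730 and 550 against 120 and 292 CPM, -1.64, SE 0.51, 0.0284). With sheIF6 FASN was at 690 and 517 against 271 and 249 CPM there (-1.21, 0.0855) and passed with the block (-1.69, 0.00872). In polysomal RNA FASN was at 654 and 519 against 221 and 804 with shNTC, and at 695 and 545 against 653 and 623 with sheIF6, where the lines overlapped. ACLY did not differ beyond the test's limit in any, with 626 and 630 against 566 and 700 CPM in control cytoplasmic RNA (0.01, 95% interval within a 2-fold change).

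**Figure D4:**
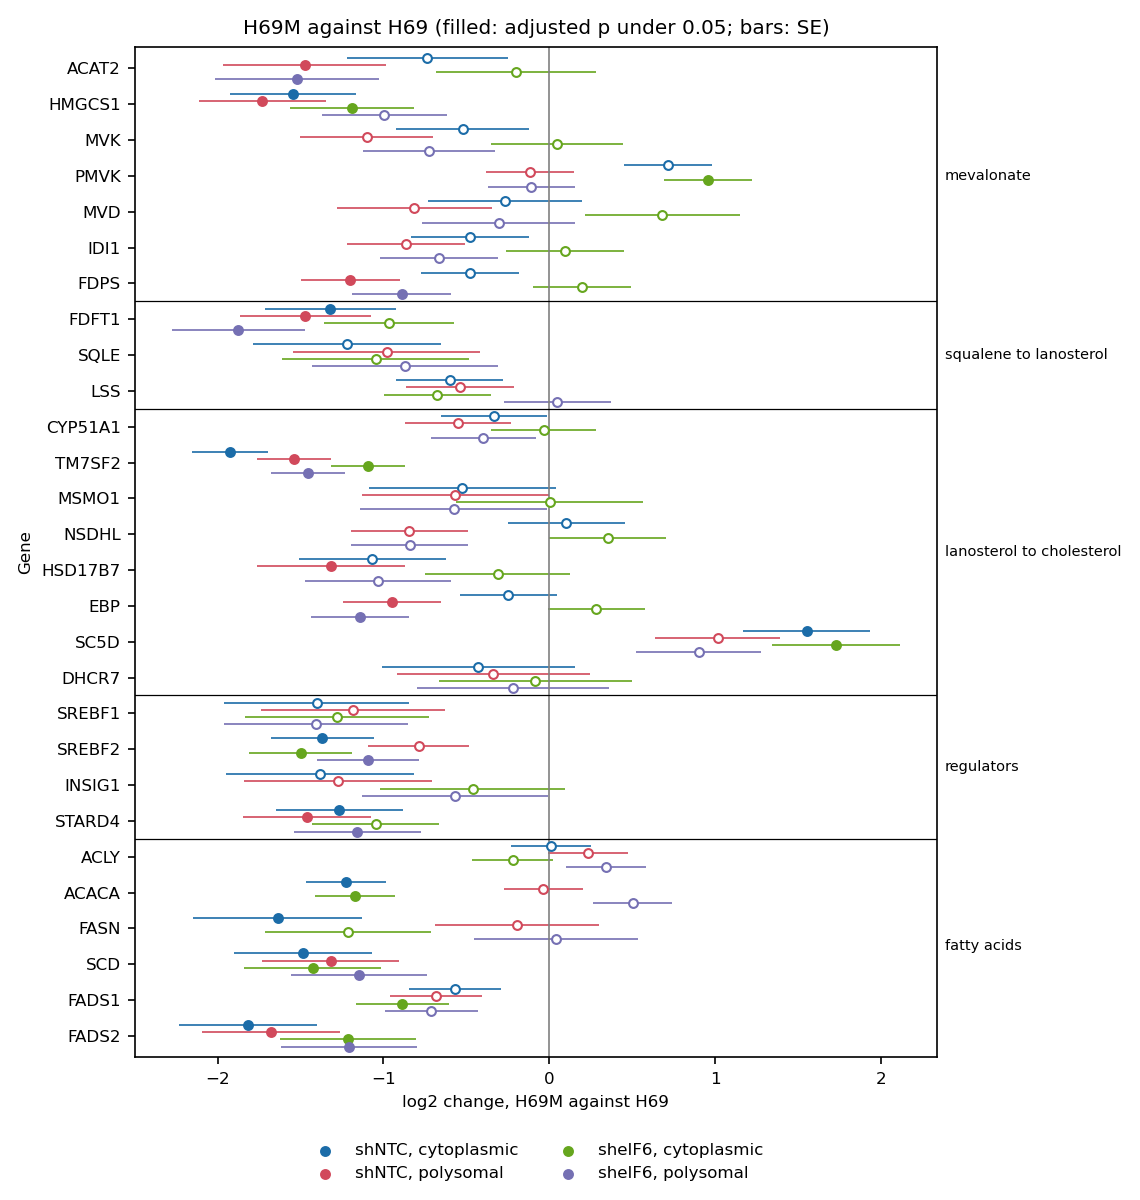
Log2 difference of H69M from H69 for each of the 28 genes with each shRNA and in each fraction, with bars of 1 standard error and filled dots for an adjusted p under 0.05. TM7SF2, SCD and FADS2 have 4 filled dots below 0, SC5D has 2 above 0 and PMVK 1, and ACACA is below 0 in cytoplasmic RNA but near or above 0 in polysomal RNA.

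The line calls leaned on single libraries to different degrees. Counts of the 28 genes called with libraries left out or with scaling by total counts alone are given below without the share of all genes. Those settings also move the calls of other genes. Such counts show how far calls depended on the setting and are not a result about these 28 genes. Of the 10 calls in control cytoplasmic RNA, 2 (TM7SF2 and ACACA) kept their call without any 1 of the 16 libraries. Without H69M shNTC cytoplasmic replicate 1, HMGCS1 (-1.12), FDFT1 (-1.12), SREBF2 (-1.04), STARD4 (-0.82), FASN (-1.13), SCD (-1.20) and FADS2 (-1.41) no longer passed, with adjusted p from 0.0588 to 0.196. Without H69 shNTC cytoplasmic replicate 1, FDFT1 (-0.95), SC5D (1.47), STARD4 (adjusted p = 0.156), FASN (-1.42) and SCD (-1.02) no longer passed. FASN no longer passed without H69 shNTC cytoplasmic replicate 2 (-1.83, adjusted p = 0.0511), nor did SC5D without H69M shNTC cytoplasmic replicate 2 (0.89, 0.114). Adjusted p here are from edgeR's quasi-likelihood test with Benjamini-Hochberg adjustment. Over all omissions of 1 library the count ran from 4 to 15. Without both H69M shNTC libraries numbered 1 the count was 7 of 28, and without both numbered 2 it was 19 (17 lower and 2 higher), with a median of -1.43. With the replicate block, at the libraries numbered 1, the count was 14 (12 lower and 2 higher, against 17.2% and 18.6% of all genes). In control H69M cytoplasmic RNA 26 of the 28 genes were lower in number 1 than in number 2. The block also holds the same shift for every group of a line. In H69M cytoplasmic RNA the median of number 2 relative to number 1 was 0.87 with shNTC and -0.43 with sheIF6. Scaling by total counts alone set the median over all genes at -0.14 and gave 11 lower and 1 higher.

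In control polysomal RNA, TM7SF2 was the 1 of 10 calls kept without any 1 library. Without H69 shNTC polysomal replicate 1, the genes ACAT2 (-1.18), HMGCS1 (-1.13), FDPS (-0.96), FDFT1 (-0.88), HSD17B7 (-1.16), EBP (-1.01), STARD4 (-0.97), SCD (-0.61) and FADS2 (-1.30) did not pass. Without H69M shNTC polysomal replicate 1 the same held for ACAT2 (-1.01), FDPS (-1.03), HSD17B7 (-0.90), EBP (-0.69), STARD4 (-1.16), SCD (-1.18) and FADS2 (-1.29). Without H69 shNTC polysomal replicate 2 it held for ACAT2 (-1.72), HSD17B7 (-1.45) and EBP (-0.88), and without H69M shNTC polysomal replicate 2 for FDFT1 (-1.38) and SCD (-1.48). Omitting a library of another group moved 2 genes just past the limit: ACAT2 without either H69 sheIF6 cytoplasmic replicate (adjusted p = 0.052) and HSD17B7 without either H69M sheIF6 polysomal replicate (0.0511 and 0.0512). These adjusted p are from edgeR's quasi-likelihood test with Benjamini-Hochberg adjustment. The count ran from 1 to 14 over all omissions. It was 6 (5 lower) without both H69M shNTC libraries numbered 1, 17 without both numbered 2, and 16 lower and 0 higher with the replicate block (18.8% and 20.8% of all genes), which added IDI1 (-1.13, a gene that IDI2-AS1 overlaps at 14.8% of exon bases from the opposite strand), SQLE (-1.72), CYP51A1 (-0.91), NSDHL (-1.12), SREBF2 (-0.99) and FADS1 (-0.87).

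With sheIF6 in cytoplasmic RNA, TM7SF2, SC5D, SREBF2 and ACACA (4 of 9) kept their calls without any 1 library. HMGCS1, FADS1 and FADS2 each lost theirs without any 1 of the 4 libraries compared, H69 sheIF6 cytoplasmic replicates 1 and 2 and H69M sheIF6 cytoplasmic replicates 1 and 2. In that order HMGCS1 was at -1.30, -1.05, -1.15 and -1.21, FADS1 at -0.89, -0.87, -0.80 and -0.96, and FADS2 at -1.07, -1.33, -1.43 and -1.01. PMVK lost its call without either H69 replicate (0.98 and 0.96) or H69M replicate 1 (0.73), and SCD without H69 replicate 1 (-1.27), H69M replicate 1 (-1.35) and H69M replicate 2 (-1.49). FADS2 also just missed the limit without H69M sheIF6 polysomal replicate 1 or 2 (adjusted p = 0.0517 and 0.0519, edgeR's quasi-likelihood test with Benjamini-Hochberg adjustment). The count ran from 4 to 11. The replicate block gave 13 (11 lower, 2 higher, against 17.1% and 19.3% of all genes), adding FDFT1, SQLE, STARD4 and FASN. Scaling by total counts alone gave 11 lower and 1 higher, with a median of -0.19 over all genes.

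With sheIF6 in polysomal RNA, FDFT1 and TM7SF2 (2 of 9) kept their calls. The losses without H69 sheIF6 polysomal replicate 1 were ACAT2 (-1.30), FDPS (-0.76), SREBF2 (-0.81), STARD4 (-0.87), SCD (-0.66) and FADS2 (-0.80). Those without H69M sheIF6 polysomal replicate 1 were ACAT2 (-1.51), FDPS (-0.71), EBP (-0.92), STARD4 (-1.32), SCD (-1.38) and FADS2 (-1.39), and those without H69M sheIF6 polysomal replicate 2 were ACAT2 (-1.54), SREBF2 (-0.89), STARD4 (-1.02), SCD (-0.94) and FADS2 (-1.05). Without H69 sheIF6 polysomal replicate 2 ACAT2 (-1.72) and FDPS (-1.01) did not pass. Omitting either H69 sheIF6 cytoplasmic library took FDPS (adjusted p = 0.0506 and 0.0504) and SCD (0.059 and 0.0588) past the limit, and omitting either H69M sheIF6 cytoplasmic library did so for SCD (0.0582 and 0.0583), by edgeR's quasi-likelihood test with Benjamini-Hochberg adjustment. The count ran from 3 to 13. It was 14 lower and 0 higher with the replicate block (19.8% and 21.5% of all genes), which added HMGCS1 (-1.35), SQLE (-1.45), NSDHL (-1.11), HSD17B7 (-1.30) and FADS1 (-0.84). It was 3 without both H69M polysomal libraries numbered 2, the pair with the higher neuroendocrine marker sums.

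Polysomal RNA was compared with cytoplasmic RNA within each line and shRNA, as a measure of how much of a transcript is on polysomes relative to the average transcript. Both fractions were scaled to their own totals, so a difference is relative. In H69 shNTC, 4 of 28 genes were higher in polysomal RNA and 0 lower, against 6.63% and 5.2% of all genes. In H69 sheIF6 the same 4 genes were higher and 0 lower, against 5.66% and 4%. In H69M shNTC 1 was higher and 0 lower (2.16% and 2.54% of all genes), and in H69M sheIF6 2 were higher and 0 lower (1.91% and 2.26%). The median log2 differences over the 28 genes were 0.52, 0.46, 0.63 and 0.25 in that order, against -0.14, -0.11, 0 and -0.02 over all genes. In H69M sheIF6 it became 0.58 when cytoplasmic replicate 1 was omitted and -0.03 when cytoplasmic replicate 2 was omitted. Under scaling by total counts alone the median in H69 sheIF6 was 0.13 (-0.44 over all genes).

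The 4 genes higher on polysomes in H69 were PMVK, FDPS, NSDHL, which removes a carbon from the sterol ring, and EBP. NSDHL was at 32.3 and 31.4 CPM in H69 shNTC cytoplasmic RNA and at 127 and 91.5 in polysomal RNA, and at 37.8 and 34.3 against 118 and 87.6 with sheIF6. FDPS was at 275 and 211 against 809 and 594 with shNTC and at 255 and 240 against 735 and 617 with sheIF6. In all 4 genes both polysomal libraries exceeded both cytoplasmic ones. The differences in H69 shNTC were 1.26 for PMVK (SE 0.27, adjusted p = 0.0104), 1.53 for FDPS (SE 0.30, 0.0074), 1.78 for NSDHL (SE 0.36, 0.00848) and 1.31 for EBP (SE 0.30, 0.0137) by edgeR's quasi-likelihood test with Benjamini-Hochberg adjustment. With sheIF6 they were 1.21 (0.015), 1.45 (0.0116), 1.51 (0.0202) and 1.32 (0.0164).

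In H69M it was ACACA and ACLY, the enzymes that supply malonyl-CoA and acetyl-CoA. ACACA was at 30.2 and 33.8 CPM in shNTC cytoplasmic RNA and at 80.1 and 87.9 in polysomal RNA, and at 26.2 and 37.7 against 116 and 98.3 with sheIF6, with no overlap. The differences were 1.39 (SE 0.24, adjusted p = 0.0104) and 1.75 (SE 0.24, 0.00497) by edgeR's quasi-likelihood test with Benjamini-Hochberg adjustment. ACLY was at 478 and 614 against 1044 and 1302 CPM with sheIF6 (1.10, SE 0.24, 0.0271), and at 566 and 700 against 941 and 1271 with shNTC (0.80, 0.0779, and 0.0202 with the replicate block). In H69 ACACA was at 69.1 and 80.4 against 90.4 and 81.8 CPM with shNTC (0.20, 0.64). The difference between the lines in control cells was tested directly: none of the 28 genes passed, with 0% of all genes called in either direction (0.0303% and 0.00866% with the block). Unadjusted p was under 0.05 for 2 of the 28 genes and 2127 of all genes, and DESeq2 and limma-voom called 0 of the 28. For ACACA it was 1.19 (SE 0.34, unadjusted p = 0.0038, adjusted p = 0.386), for FASN 1.44 (SE 0.71, adjusted p = 0.574), for NSDHL -0.95 (SE 0.50, 0.606) and for PMVK -0.83 (SE 0.37, 0.528). The median over the 28 genes was -0.13 and over all genes 0.11.

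STARD4 had the lowest log2 difference of polysomal from cytoplasmic RNA among the 28 genes in all 4 groups. It was at 222 and 158 CPM in H69 shNTC cytoplasmic RNA and at 119 and 65.8 in polysomal RNA, and at 50.8 and 107 against 25.7 and 41.6 in H69M shNTC. The replicate block called it lower, at -1.07, -1.10, -1.20 and -1.14 in H69 shNTC, H69 sheIF6, H69M shNTC and H69M sheIF6 (adjusted p = 0.022, 0.0219, 0.0209 and 0.028, edgeR's quasi-likelihood test with Benjamini-Hochberg adjustment). Without the block the adjusted p were 0.0986, 0.101, 0.087 and 0.107. Under scaling by total counts alone it was called lower in all 4 (-1.40, -1.41, -1.48 and -1.33), and the median over all genes then shifted to -0.49, -0.44, -0.25 and -0.17 in the groups H69 shNTC, H69 sheIF6, H69M shNTC and H69M sheIF6. PMVK lost its call under that scaling in H69 shNTC (0.92) and sheIF6 (0.89), while the other genes called on polysomes kept theirs. The counts under that scaling were 3 higher and 1 lower in each H69 group, 1 and 1 in H69M shNTC, and 2 and 1 in H69M sheIF6.

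The replicate block raised the number of polysome calls. In H69 shNTC it called 7 higher and 1 lower (9.87% and 9.01% of all genes), adding ACAT2 (1.40), FDFT1 (1.26) and ACLY (0.58), with STARD4 lower. In H69 sheIF6 it called 5 higher and 1 lower (8.44% and 7.2%), adding FDFT1 (1.14). In H69M shNTC it called 5 higher and 1 lower (6.08% and 5.02%), adding FDFT1 (1.14), TM7SF2 (0.77), SREBF2 (1.04) and ACLY (0.80). In H69M sheIF6 it called 3 higher and 1 lower (4.65% and 4.71%), adding LSS (1.18).

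**Figure D5:**
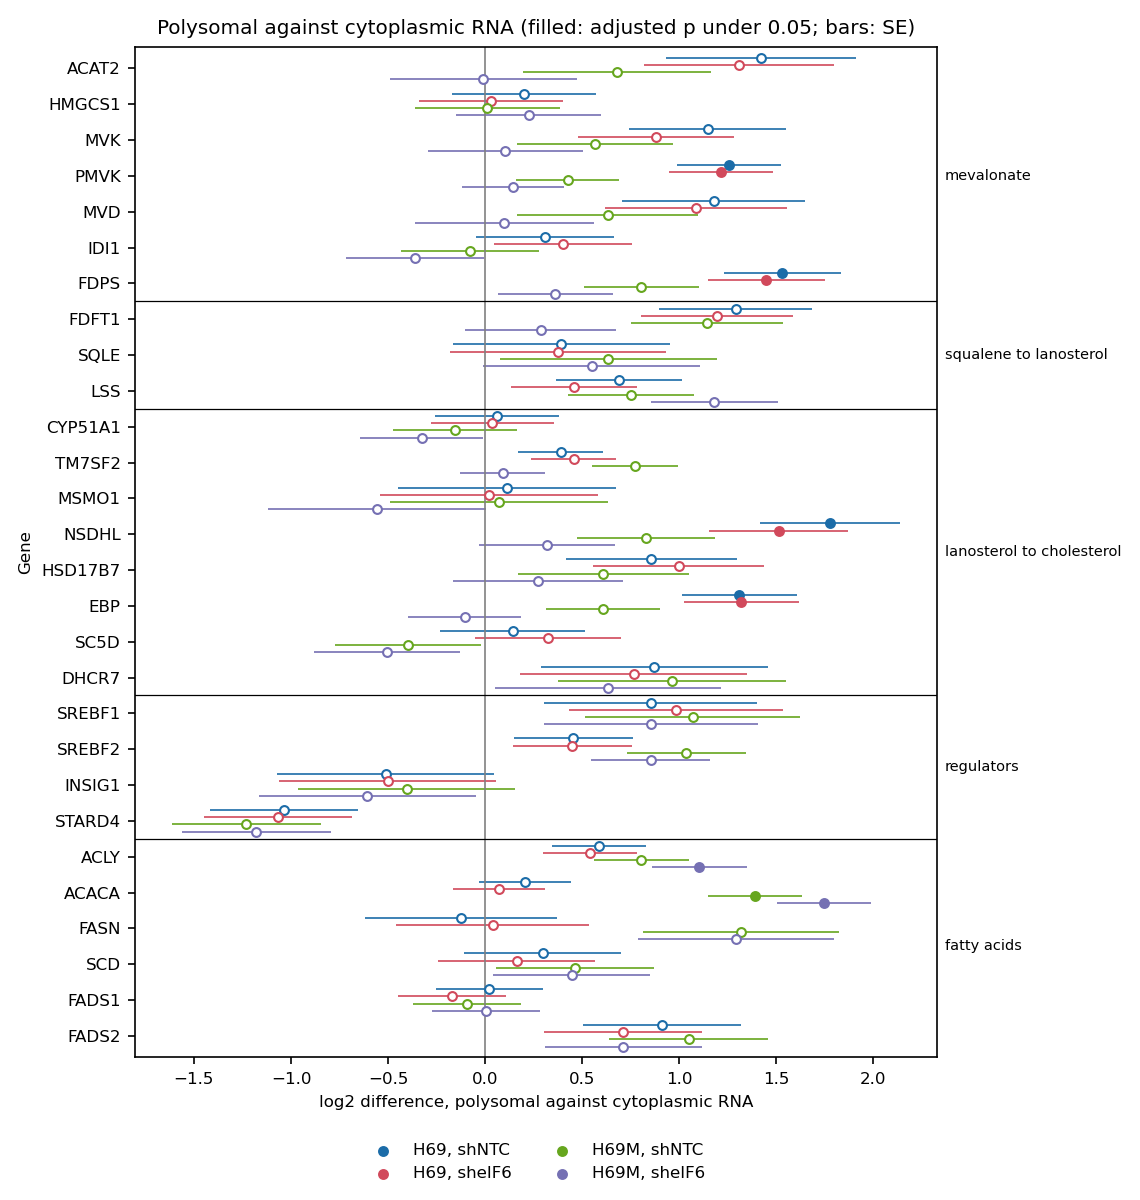
Log2 difference of polysomal from cytoplasmic RNA for each of the 28 genes in each line and shRNA, with bars of 1 standard error and filled dots for an adjusted p under 0.05. PMVK, FDPS, NSDHL and EBP have filled dots in both H69 groups, ACACA in both H69M groups and ACLY in H69M sheIF6, and STARD4 is below 0 in all 4 groups.

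These polysome calls depended on single libraries. With H69 shNTC cytoplasmic replicate 1 left out, PMVK (1.21), FDPS (1.74), NSDHL (1.80) and EBP (1.37) did not pass. The same held with H69 shNTC cytoplasmic replicate 2 left out (1.31, 1.35, 1.76 and 1.26). When H69 shNTC polysomal replicate 1 was omitted, FDPS (1.29), NSDHL (1.53) and EBP (1.37) did not pass, and when H69 shNTC polysomal replicate 2 was, PMVK (0.91) and EBP (1.25). In H69 sheIF6, all 4 lost their calls without cytoplasmic replicate 1 (1.23, 1.50, 1.59 and 1.30), without cytoplasmic replicate 2 (1.21, 1.41, 1.45 and 1.34) and without polysomal replicate 1 (1.34, 1.32, 1.28 and 1.32), and PMVK (1.08) and EBP (1.32) without polysomal replicate 2. In H69M shNTC, ACACA lost its call without H69M shNTC cytoplasmic replicate 1 (1.31), cytoplasmic replicate 2 (1.48) and polysomal replicate 2 (1.33). In H69M sheIF6, ACACA kept its call without any 1 library. ACLY there did not pass without H69M sheIF6 cytoplasmic replicate 1 (0.93), cytoplasmic replicate 2 (1.29), polysomal replicate 1 (1.25) or polysomal replicate 2 (0.93), nor without either H69 shNTC or either H69 sheIF6 cytoplasmic replicate (adjusted p = 0.0538, 0.0533, 0.059 and 0.0591, edgeR's quasi-likelihood test with Benjamini-Hochberg adjustment).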

How the data were processed

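The authors deposited 1 table of raw counts per gene name for the 16 libraries. Reads were aligned with STAR and counted with HTSeq on GRCh38, per the submitters' processing notes; versions and the strand setting are not given in the sources used here. Column names were mapped to the labels, and 0 columns of other samples were found. Counts were filtered with filterByExpr (minimum count 10), scaled by trimmed mean of M-values and fitted with edgeR 4.0.16 (R 4.3.3), 1 mean for each of 8 groups and 8 residual degrees of freedom, with robust quasi-likelihood tests adjusted by Benjamini-Hochberg over 23100 genes and a limit of 0.05. Standard errors come from that fit, and depth was 36005326 to 87269772 counts per library. The 28 genes and the lists were chosen with earlier results of these data known. Values are given for a panel with 1 or 2 genes per role, for genes called (up to 6 in each direction) and for those called with the replicate block, and for up to 3 other pathway genes in each direction. Labels give the same numbers in every group. Deviations from group means correlated in all 6 pairs of groups within H69 (r from 0.168 to 0.280) and all 6 within H69M (0.172 to 0.578), and from -0.107 to 0.0457 between lines, so the numbers were taken to pair libraries within a line only, as a block with 6 residual degrees of freedom. That block takes number 1 as its reference, so line differences with it are those fitted for number 1. Alternatives were other scalings and filters, DESeq2 1.42.0, limma 3.58.1 (voom), the blocks, 1 line alone and omission of libraries. The test was checked on simulated data. Positions and exon lengths are from GENCODE 29 and promoters from RefSeq on GRCh38.p14.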

Additional observations from a re-analysis of the deposited data

How the results depend on the processing

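The 85 single-gene results cover EIF6 on knockdown and those of the 28 genes called in a comparison without or with the replicate block. Over 28 settings, 1942 of their 2262 alternative values stayed on the same side of the limit, 158 lost the call, 162 gained one and 0 changed sign. Genes without a call were left out, and some changed sign. In H69M cytoplasmic knockdown DHCR7 was at -0.22 and SREBF1 at 1.34 without both shNTC libraries numbered 1. Without both numbered 2 they were at 1.57 and -0.44. Medians moved by more than their spread in 9 of 459 cases and counts by more than 1.5 times in 62 of 459. Where no share of all genes stands beside a count below, the count describes dependence on the setting. It is not a result about these 28 genes. Omitting 1 library, the number of the 28 genes called ran from 4 to 15 (control cytoplasmic line comparison), 1 to 14 (control polysomal), 4 to 11 and 3 to 13 (sheIF6 cytoplasmic and polysomal), and for polysomal against cytoplasmic RNA from 0 to 6 in H69 shNTC, 0 to 2 in H69M shNTC, 0 to 5 in H69 sheIF6 and 1 to 2 in H69M sheIF6; elsewhere it was 0. The replicate block within each line gave 16 in the control polysomal and 14 in the sheIF6 polysomal line comparison, at the libraries numbered 1. For loading (polysomal against cytoplasmic RNA) it gave 8, 6 and 4 in H69 shNTC, H69M shNTC and H69M sheIF6. It removed no call made without it. The block by numbered pair gave 14, 13, 13 and 9 for H69 shNTC, H69M shNTC, H69 sheIF6 and H69M sheIF6, against 22.9%, 15.1%, 19.4% and 12.8% of all genes by the same fit. With 1 line alone the 4 counts were 12, 0, 9 and 0, against 21%, 0%, 18.2% and 0.0048%. DESeq2 gave 7 for loading in H69 shNTC, 6 in H69M shNTC and 1 for knockdown in H69M cytoplasmic RNA, and total counts alone gave 2 in H69M shNTC. The settings that follow were chosen after the data were seen. Without both H69M shNTC libraries numbered 1 there were 6 calls in the control polysomal and 16 in the sheIF6 polysomal line comparison, and 9 and 0 for loading in H69 shNTC and H69M shNTC. Without both numbered 2 there were 1 and 1 for H69M knockdown in cytoplasmic and polysomal RNA, 19, 17 and 15 in the control cytoplasmic, control polysomal and sheIF6 polysomal line comparisons, and 8, 0, 7 and 4 for loading in H69 shNTC, H69M shNTC, H69 sheIF6 and H69M sheIF6. Without both H69M polysomal libraries numbered 2 there were 3 in the sheIF6 polysomal line comparison, and 0 and 1 for loading in H69M shNTC and H69M sheIF6. Small changes were rarely called in data simulated from these libraries. The changed genes were drawn at random from those with a mean above 1 CPM and not matched to the levels of the 28 genes. For the H69 cytoplasmic knockdown, fitted on 21834 genes, 3 of 50 genes changed 2-fold and 18 of 50 changed 4-fold were called. The numbers were 1 and 28 for the control cytoplasmic line comparison, and 1 and 25 for loading in H69 shNTC. Changes of 1.5-, 2-, 4- and 8-fold were each given to only 50 genes. A far larger share of genes was called in the real line and loading comparisons. With fewer genes changed, the Benjamini-Hochberg limit is stricter, so the simulated numbers cannot give the rate of detection in those comparisons.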

Other observations

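The line comparison also reached 47 other genes of lipid metabolism, set by list. Among 9 genes that retain, process or degrade parts of the SREBP machinery, 3 were higher and 0 lower in H69M control cytoplasmic RNA, and 3 and 0 in control polysomal RNA. Among 7 genes of sterol transport and storage 4 were higher and 1 lower in both. Among 17 other fatty acid genes 5 were higher and 1 lower in cytoplasmic and 3 and 2 in polysomal RNA. Among 9 isoprenoid genes the counts were 1 and 1, and 0 and 2, and among 5 genes of sterol export and its LXR receptors 1 and 2, and 1 and 1. With sheIF6 the same 5 lists, in the order given, had 4 higher and 0 lower, 4 and 1, 5 and 2, 1 and 1, and 1 and 2 in cytoplasmic RNA, and 4 and 0, 4 and 1, 5 and 2, 0 and 2, and 1 and 1 in polysomal RNA. By edgeR's quasi-likelihood test with Benjamini-Hochberg adjustment, 16.2% of all genes were called higher and 14.1% lower in control cytoplasmic RNA, 18.4% and 15.6% in control polysomal, 16.9% and 14.6% in sheIF6 cytoplasmic, and 19% and 17.3% in sheIF6 polysomal RNA.

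The genes with the largest rises were ME1, the cytosolic malic enzyme, NPC2, which carries cholesterol out of lysosomes, and LIPA, the lysosomal acid lipase. ME1 was at 0.956 and 1.06 CPM in H69 control cytoplasmic RNA and at 44.3 and 61.3 in H69M (log2 difference 5.71). NPC2 was at 7.28 and 8.03 against 169 and 233 CPM (4.71), and LIPA at 2.44 and 6.71 against 29.4 and 58.7 (3.27). ERLIN1, which takes part in sterol-driven degradation in the endoplasmic reticulum, was at 28.1 and 23.4 against 73.4 and 93.1 CPM (1.69). These 4 genes were higher in H69M in all 4 line comparisons and kept that call under every alternative run. ERLIN1 was named after its values were seen. The largest falls were those of ABCG1, SCARB1, which takes up cholesterol from lipoproteins, and ACSL1, an acyl-CoA synthetase. SCARB1 was at 138 and 90.4 against 27.6 and 16.4 CPM (-2.38) and ACSL1 at 10.2 and 17.5 against 3.90 and 2.48 CPM (-2.12), and both kept their calls in control cytoplasmic RNA under every alternative run. ABCG1, a sterol exporter, was at 89.5 and 36.6 against 2.72 and 0.264 CPM (-5.39, adjusted p = 0.0138 by edgeR's quasi-likelihood test with Benjamini-Hochberg adjustment). ABCG1 lost that call without H69 shNTC cytoplasmic replicate 1 (-4.61) or H69M shNTC cytoplasmic replicate 2 (-4.53).

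On EIF6 knockdown none of the 47 genes was called in any line or fraction. ELOVL7, a fatty acid elongase, was at 25.6 and 34.3 CPM in H69M control cytoplasmic RNA and at 9.39 and 11.7 with sheIF6, and at 16.7 and 31.8 against 9.73 and 7.16 in polysomal RNA. The fit without the replicate block did not call it, and the fit with it did (-1.50, adjusted p = 0.0334, and -1.45, 0.0495, by edgeR's quasi-likelihood test with Benjamini-Hochberg adjustment).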
